A study of Mus musculus with 12 samples.

Results

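Interferon regulatory factors (IRFs) are a family of transcription factors, and 8 of its genes (Irf1, Irf2, Irf3, Irf4, Irf5, Irf7, Irf8 and Irf9) are described here. They were taken as every probe set whose platform annotation gives 1 of these symbols, which came to 14 of the 45037 probe sets on the array. Total RNA was measured on 12 one-colour Affymetrix arrays, 3 in each of 4 groups, from Ebf1-/- progenitors of C57BL/6 mice at the pre-pro-B stage, the point where B-cell development halts when EBF1 is missing. All 4 groups carried the Ebf1-/- genotype, were grown on the mouse stromal line OP9 with 4% fetal calf serum, β-mercaptoethanol, penicillin and streptomycin, and received SCF and Flt3L at 10 ng/ml and IL-7 at 5 ng/ml. EBF1 cells (first set, n = 3 arrays) carried a retrovirus encoding Ebf1 and GFP, PAX5 cells (second set, n = 3 arrays) carried one encoding Pax5 and GFP, and control (MigR1) cells (n = 3 arrays in each set) carried GFP alone. Cells positive for GFP were sorted 2 days after infection, so the added factor came from a viral vector. Nothing in the labels ties the arrays of a group to different cultures or mice. The p-values therefore reflect only the array-to-array spread, and that spread may be technical.

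IRF proteins share an N-terminal DNA-binding domain that contacts GAAA-containing elements. Irf3, Irf5 and Irf7 are activated downstream of pattern recognition receptors, Irf9 is the DNA-binding part of the ISGF3 complex that answers type I interferon, Irf1 is induced by interferon gamma, and Irf2 can compete with Irf1 for the same elements. Irf4 and Irf8 are the members most closely tied to lymphoid development: they bind DNA weakly alone, bind composite elements together with the ETS factors PU.1 or Spi-B, and act redundantly in pre-B cells.

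Across the arrays, median intensity ran from 55.1 to 60.6 in the first set and from 65.3 to 68.9 in the second. Precision is limited by how few arrays there are. First-set and second-set controls of the same number were nearly identical: over 12889 bright probe sets the robust SD of their log2 difference was 0.0392 to 0.0942, against 0.287 to 0.374 between controls of different numbers. PAX5 arrays 2 and 3 were also nearly identical (0.0774, against 0.211 to 0.359 for the remaining within-group pairs). Each such pair was therefore counted as 1 sample, which left 3 EBF1, 2 PAX5 and 3 control samples in the tests. Of 2 Pax5 probe sets, 1421765_at read 1849, 890.6 and 931.8 in PAX5 cells, against 12.83, 8.97 and 7.98 in their controls. The other, 1454401_at, read 54.07, 56.14 and 60.23 in PAX5 cells, against 74.24, 54.64 and 63.09, and did not pass (log2 change -0.14, limma adjusted p = 0.911). The 5 Ebf1 probe sets read 336.5 to 2477 in EBF1 cells, against 395.9 to 2173 in their controls. None was past the threshold, and whether they lie in the deleted or the viral part of the gene is not known here, so they check nothing. The pro-B markers Cd79a, Cd79b, Vpreb1 and Igll1 all rose in EBF1 cells and summed to intensities of 7550 to 18386 there, against 204 to 220 in their controls.

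The bases just upstream of the annotated transcription start were read for the members from RefSeq promoter windows of GRCm38.p6 and searched on both strands for 4 motifs: an interferon-stimulated response element (GAAA, any 2 bases, GAAA), a composite ETS-IRF element (GGAA, any 2 bases, GAAA), a GAS element bound by STAT dimers (TTCNNNGAA) and an EBF element (CCCNNGGG). Of 32851 such windows of 250 bases, 2.98% held the first, 2.3% the second, 7.02% the third and 11.8% the fourth. Irf4 and Irf8 are shown in full because the array results turn on them, and capitals mark a motif match. RefSeq gives several windows for Irf1, Irf8 and Irf9, and the first is shown for Irf1 and Irf8. The Irf4 window held none of the 4.
Irf4, chr13:30748983-30749232, plus strand: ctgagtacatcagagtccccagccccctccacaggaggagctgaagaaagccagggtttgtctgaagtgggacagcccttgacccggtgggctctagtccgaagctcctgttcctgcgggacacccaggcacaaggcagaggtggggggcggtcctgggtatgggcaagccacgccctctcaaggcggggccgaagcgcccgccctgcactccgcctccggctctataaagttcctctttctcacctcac
Irf8, chr8:120736108-120736357, plus strand: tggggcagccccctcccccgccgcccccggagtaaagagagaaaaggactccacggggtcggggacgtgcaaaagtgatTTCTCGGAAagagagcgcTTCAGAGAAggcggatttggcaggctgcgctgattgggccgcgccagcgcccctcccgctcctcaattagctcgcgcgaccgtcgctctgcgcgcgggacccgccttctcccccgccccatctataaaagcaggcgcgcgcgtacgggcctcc

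Both capital stretches in Irf8 are GAS matches. For Irf1 and Irf2, the only other members with a match, the match and its flanks are given to show which kind of element each holds, a GAS match in Irf1 and an interferon-stimulated response element in Irf2.
Irf1, chr11:53769914-53769942, plus strand: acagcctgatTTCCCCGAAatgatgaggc
Irf2, chr8:46739495-46739523, plus strand: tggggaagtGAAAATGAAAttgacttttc

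The Irf1 window also held 2 EBF matches, and the Irf2 window a composite ETS-IRF match that overlaps the element shown and a GAS match. No match was found in the windows of Irf3, Irf5, Irf7 or Irf9, or in the second windows of Irf1 and Irf8. The Irf5 window (chr6:29526375-29526624, plus strand) lies inside the gene, which starts at 29526130. The Irf7 window (chr7:141266425-141266674, minus strand) overlaps the gene, which ends at 141266499. The 250 bases before these outermost gene ends were therefore not all searched. A match describes the letters only, and no binding was measured on these arrays.

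Of the family, only Irf4 passed the test against controls, and it did so in PAX5 cells. On the log2(intensity + 16) scale used throughout, which understates the change of dim probe sets, limma called 2 of the 14 probe sets higher and 0 lower in PAX5 cells, both of them Irf4, at an adjusted p under 0.05. In the whole table the same comparison called 0.515% of probe sets, 0.464% higher and 0.0511% lower. At an unadjusted p under 0.05, 5 of the 14 passed, beside 8.51% of the table. With EBF1, limma called 0 of 14 in either direction, beside 0.0977% of the table, and 1 of 14 had an unadjusted p under 0.05, beside 9.97%. The table's EBF1 calls were 44 probe sets in the main fit and 597 without EBF1 array 3. They were 22 with only the samples of the comparison and 7 with the replicate block on the first-set arrays alone. The test of EBF1 change minus PAX5 change called 0 of 14 higher and 4 lower, both Irf4 and both Irf8 probe sets. In the table it called 1.05%, 0.28% higher and 0.77% lower, and 6 of 14 had an unadjusted p under 0.05, beside 14.7%. The median change over the 14 probe sets was -0.16 with EBF1 and 0.12 with PAX5, beside 0.02 and -0.01 over all probe sets. Each array pools many sorted cells, so fewer cells of a type and less RNA per cell cannot be told apart.

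**Figure D1:**
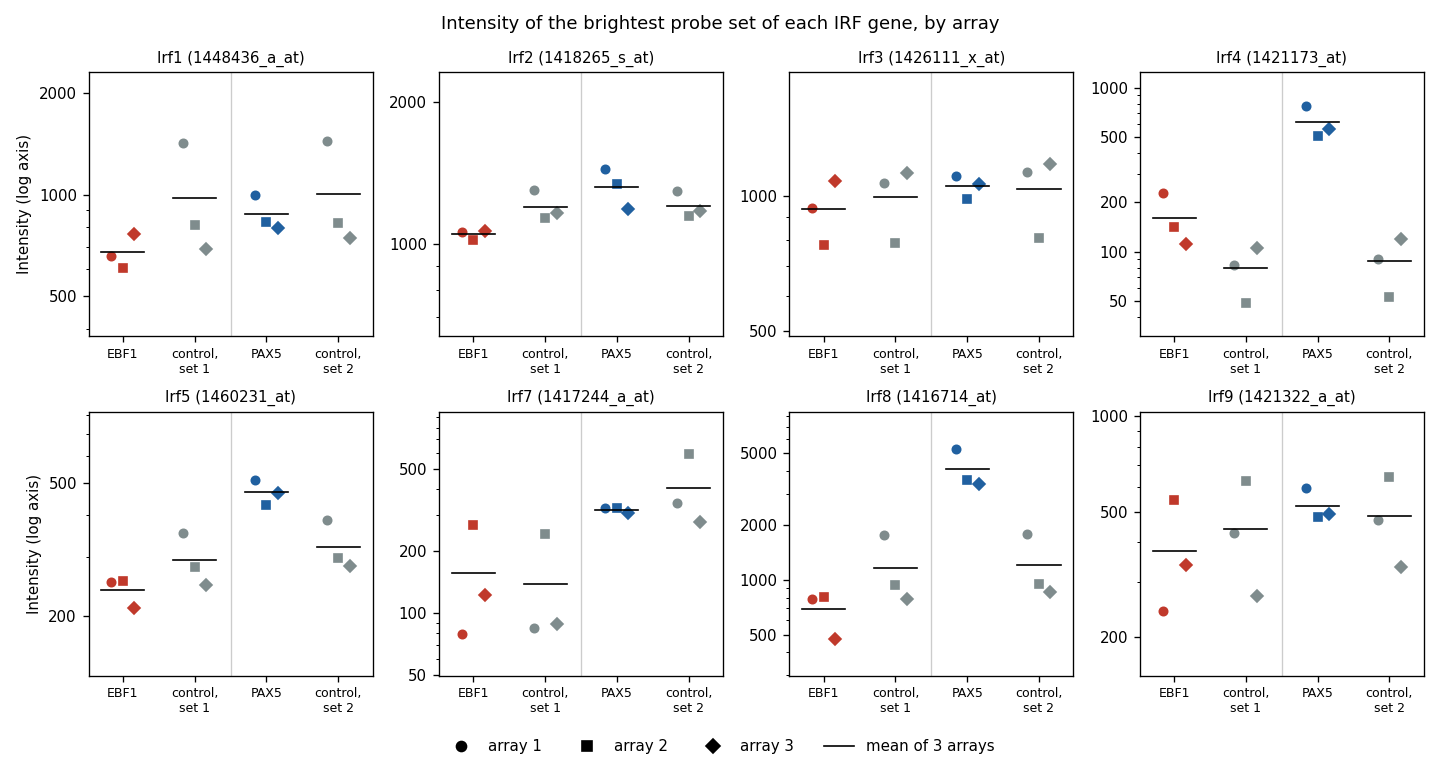
Intensity (log axis) of the brightest probe set of each of the 8 IRF genes on every array, with 1 point for each of the 3 arrays of EBF1, first-set control, PAX5 and second-set control cells and a line at their mean. Irf4, Irf5 and Irf8 lie above all their controls in PAX5 cells, and the 2 control sets differ for Irf7.

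Irf4, a factor of pre-B and plasma cell differentiation, was the member with the greatest change in PAX5 cells. Its brighter probe set, 1421173_at, read 775.56, 510.81 and 557.23 in PAX5 cells, against 90.12, 52.93 and 120.10 in their controls. Every PAX5 array lay above every control array, with PAX5 array 1, which also had the highest Pax5 reading, at the top. The mean over the 2 PAX5 samples was 655 ± 171 (SD, n = 2), against 87.7 ± 33.6 in controls (SD, n = 3), and limma gave a log2 change of 2.72 (SE 0.34, adjusted p = 0.0118).

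The dimmer Irf4 probe set, 1421174_at, followed the same order. It read 168.68, 83.59 and 84.38 in PAX5 cells, against 23.43, 13.67 and 22.97 in controls, with no overlap. Its log2 change was 1.93 (SE 0.258, limma adjusted p = 0.0168). Over the 8 samples the log2 values of the pair correlated at 0.956, a description over samples that share a culture system and controls.

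The Irf4 calls rested on few arrays. Leaving out PAX5 array 1 leaves 1 PAX5 sample, the mean of arrays 2 and 3, which is then assumed to vary as the other groups do. In that fit the log2 change was 2.46 for 1421173_at (limma adjusted p = 0.209) and 1.49 for 1421174_at (adjusted p = 0.123), so neither passed. Without control 1 the changes were 2.77 (adjusted p = 0.0514) and 1.999 (adjusted p = 0.058). Without control 2 or control 3, 1421174_at also missed the threshold, at 0.0828 and 0.078.

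With EBF1 the Irf4 readings lay above the controls by a smaller margin. For 1421173_at they were 229.17, 140.76 and 110.92 in EBF1 cells, against 83.38, 48.97 and 105.89 in controls, and the lowest EBF1 array was barely above the highest control. The log2 change of 0.88 (SE 0.304, 95% interval 0.19 to 1.57) had a limma adjusted p of 0.381. For 1421174_at the readings were 44.41, 27.86 and 37.04 in EBF1 cells, against 26.24, 19.70 and 23.58 in controls, a log2 change of 0.41 (adjusted p = 0.611). Non-overlap with EBF1 above controls held for these 2 of the 14 probe sets and for 7.06% of the whole table.

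The difference between the factors was itself tested. EBF1 change minus PAX5 change was -1.85 for 1421173_at (SE 0.34, limma adjusted p = 0.0469) and -1.52 for 1421174_at (SE 0.258, adjusted p = 0.0355). Irf4 thus changed less in EBF1 than in PAX5 cells at both probe sets in the main fit. With all 12 arrays counted separately, neither difference passed (limma adjusted p = 0.172 and 0.129). Without PAX5 array 1, again with 1 PAX5 sample, the differences were -1.58 and -1.07 and were not called, nor was any other of the 14 IRF probe sets. Without EBF1 array 2 the difference was called for 1 of the 14, and without each control in turn for 2, against 4 with all samples.

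**Figure D2:**
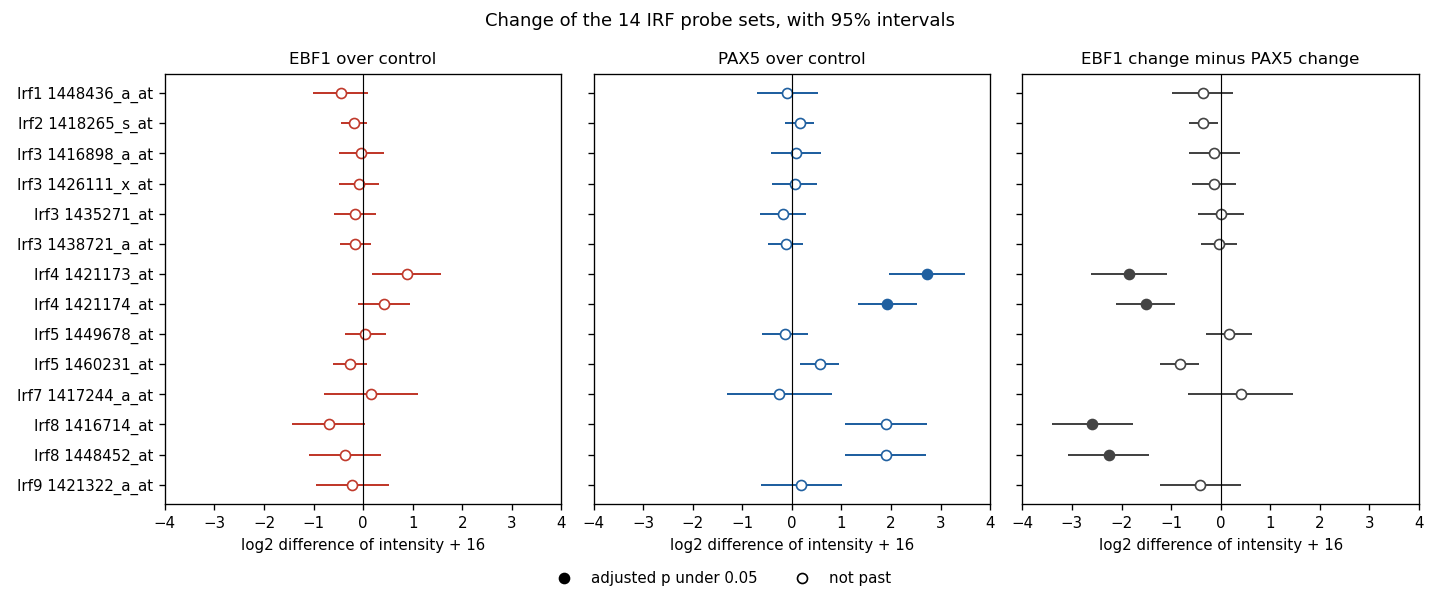
Log2 change of each IRF probe set with its 95% interval (horizontal axis, one line per probe set) for EBF1 against control, PAX5 against control, and EBF1 change minus PAX5 change. Filled points passed limma's adjusted threshold: 0 with EBF1, 2 (Irf4) with PAX5 and 4 (Irf4 and Irf8) for the difference.

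Irf8, which acts with Irf4 in pre-B cells and is also needed for monocyte and dendritic cell development, was the member for which the factors differed most. The brighter probe set, 1416714_at, read 784.34, 811.21 and 474.72 in EBF1 cells, against 1779.9, 937.94 and 788.03 in controls of the first set. It read 5274.5, 3572.9 and 3392.9 in PAX5 cells, against 1804.2, 955.14 and 863.26 in controls of the second set. The EBF1 readings overlapped their controls at the low end, while every PAX5 reading lay well above its controls, PAX5 array 1 again the highest. EBF1 change minus PAX5 change was -2.59 (SE 0.361, 95% interval -3.41 to -1.77, limma adjusted p = 0.0158), and in the fit with 1 PAX5 sample, without PAX5 array 1, it was -2.29 and missed the threshold (adjusted p = 0.253).

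Neither change of Irf8 1416714_at passed on its own. With PAX5 the log2 change was 1.89 (SE 0.361, 95% interval 1.07 to 2.72), with a limma adjusted p of 0.0824, and with EBF1 it was -0.69 (SE 0.323, 95% interval -1.43 to 0.04), with an adjusted p of 0.529. The PAX5 call depends on how the arrays are counted. With PAX5 arrays 2 and 3 as separate samples the limma adjusted p was 0.0303, and with the replicate number as a block as well it was 0.0213, at a change of 1.79 in both, but those arrays are nearly identical. Without control 1 the adjusted p was 0.0402.

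The other Irf8 probe set, 1448452_at, gave a similar picture within each set. It read 787.35, 477.60 and 433.05 in EBF1 cells, against 973.05, 699.13 and 523.61 in controls of the first set, with overlap. It read 1750.1, 850.45 and 906.73 in PAX5 cells, against 444.18, 277.01 and 271.28 in controls of the second set, with none. The log2 change was -0.37 with EBF1 (limma adjusted p = 0.779) and 1.89 with PAX5 (adjusted p = 0.0799), and the difference was -2.26 (adjusted p = 0.0276). With PAX5 arrays 2 and 3 as separate samples the PAX5 change was 1.73 (limma adjusted p = 0.04). With the replicate block as well the adjusted p was 0.0205. PAX5 readings lay wholly above controls for 5 of the 14 IRF probe sets (both of Irf4, both of Irf8 and 1 of Irf5), against 8.14% of the table, and wholly below for 0 of 14, against 8.77%.

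Irf5, which acts downstream of Toll-like receptors, had 1 probe set that moved in the same order as Irf8. Probe set 1460231_at read 251.88, 254.48 and 211.46 in EBF1 cells, against 355.01, 279.69 and 247.20 in controls, and 509.46, 429.28 and 466.17 in PAX5 cells, against 386.68, 297.37 and 282.72 in controls. All 3 PAX5 arrays were above their controls, and the EBF1 arrays overlapped theirs. The log2 change was -0.27 with EBF1 (limma adjusted p = 0.615) and 0.56 with PAX5 (SE 0.171, adjusted p = 0.344), and the difference of -0.83 had an adjusted p of 0.068. In a fit on only the brightest probe set of each gene, which called 1.93% of 18193 genes for the difference, its limma adjusted p was 0.0491. With PAX5 arrays 2 and 3 as separate samples the difference was -0.80 with a limma adjusted p of 0.022. That fit called 1351 probe sets of the whole table, against 473 in the main fit. With the replicate number as a block as well, a fit added after the other results were seen, the adjusted p was 0.0171 and 1796 were called. The second Irf5 probe set, 1449678_at, was dim, at 39.33 to 81.11 over all 12 arrays, overlapped the controls with both factors, and correlated at -0.168 with the first over the 8 samples, so the probe sets of Irf5 disagree.

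Irf1, Irf2 and Irf3 passed no test. Irf1 (1448436_a_at) read 658.60, 607.72 and 762.60 in EBF1 cells, against 1424.00, 813.77 and 690.31 in controls, and 996.29, 831.41 and 797.44 in PAX5 cells, against 1444.20, 825.33 and 741.64 in controls. Control 1 was far above the other controls in both sets, and the groups overlapped. The log2 change was -0.45 with EBF1 (95% interval -1.01 to 0.10, limma adjusted p = 0.591) and -0.09 with PAX5 (95% interval -0.71 to 0.53, adjusted p = 0.973).

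Irf2 (1418265_s_at) varied little within groups. It read 1063.2, 1020.0 and 1067.4 in EBF1 cells, against 1301.2, 1135.6 and 1162.4 in controls, and 1445.7, 1339.4 and 1185.2 in PAX5 cells, against 1298.0, 1148.8 and 1173.7 in controls. It was the 1 IRF probe set of 14 with every EBF1 array below every control, a pattern held by 6.14% of the table. The log2 change was -0.19 with EBF1 (SE 0.115, limma adjusted p = 0.649) and 0.16 with PAX5 (SE 0.129, adjusted p = 0.827), and the difference of -0.35 had an adjusted p of 0.263.

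Irf3, the constitutively expressed member that is activated by phosphorylation, had 4 probe sets. The ending x_at marks a probe set that can also bind similar transcripts, as s_at does for Irf2. The brightest, 1426111_x_at, read 943.32, 780.28 and 1083.1 in EBF1 cells, against 1068.9, 787.34 and 1126.8 in controls, and 1108.4, 986.29 and 1062.8 in PAX5 cells, against 1130.2, 808.83 and 1178.5 in controls. Its log2 change was -0.08 with EBF1 (95% interval -0.48 to 0.32) and 0.05 with PAX5 (95% interval -0.40 to 0.50). Array 2 was the lowest of each group. Probe set 1416898_a_at correlated with it at 0.975 over the 8 samples. The dim probe sets 1435271_at and 1438721_a_at, at 43.87 to 90.05 over all arrays, did not follow them (correlations of -0.192 to 0.144 for the pairs that involve either), and all 8 changes of Irf3 probe sets against controls overlapped the control range.

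Irf7 and Irf9, the members most tied to the type I interferon response, varied widely between arrays of the EBF1 and control groups. Irf7 (1417244_a_at) read 79.38, 268.37 and 123.02 in EBF1 cells, against 84.95, 242.65 and 89.11 in controls of the first set. It read 325.98, 323.43 and 306.52 in PAX5 cells, against 345.06, 594.79 and 276.65 in controls of the second set. Array 2 was the highest of the EBF1 group and of both control groups, and the PAX5 arrays were close to each other. The log2 change was 0.15 with EBF1 (95% interval -0.79 to 1.10, limma adjusted p = 0.947) and -0.25 with PAX5 (95% interval -1.31 to 0.80, adjusted p = 0.948). The intervals are wide, and changes of any size inside them are compatible with these readings.

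Irf9 (1421322_a_at) read 241.85, 545.55 and 339.57 in EBF1 cells, against 428.55, 623.87 and 269.43 in controls, and 592.55, 480.56 and 490.78 in PAX5 cells, against 471.07, 645.45 and 334.90 in controls. Array 2 was again the highest in EBF1 cells and in both control groups. The log2 change was -0.22 with EBF1 (limma adjusted p = 0.887) and 0.19 with PAX5 (adjusted p = 0.95).

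The same arrays stood out for genes that ISGF3 switches on. Of 17 measured genes of this kind, such as Ifit1, Mx1, Oas2 and Usp18, array 2 held the highest reading for 15 in EBF1 cells (88.2%, beside 32.5% of all 18193 genes), 10 in PAX5 cells (58.8%, beside 33.5%), 14 in first-set controls (82.4%, beside 36.7%) and 13 in second-set controls (76.5%, beside 31.9%). The control arrays of both sets look like the same hybridisations, so they are not taken as separate observations. PAX5 arrays 2 and 3 are also nearly identical and count as 1 sample, so the PAX5 count does not set array 2 apart. Usp18, which removes the ubiquitin-like protein Isg15, read 59.63, 636.3 and 163.0 in EBF1 cells, against 69.45, 717.5 and 60.61 in controls, and 142.3, 168.2 and 166.7 in PAX5 cells, against 80.47, 735.8 and 72.74 in controls. The median of the list against the mean of its own set's controls was -0.59, 0.60 and -0.10 on the 3 EBF1 arrays and -0.08, 0.10 and 0.05 on the 3 PAX5 arrays. It was -0.13, 0.58 and -0.31 on first-set controls and -0.13, 0.53 and -0.25 on second-set controls.

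**Figure D3:**
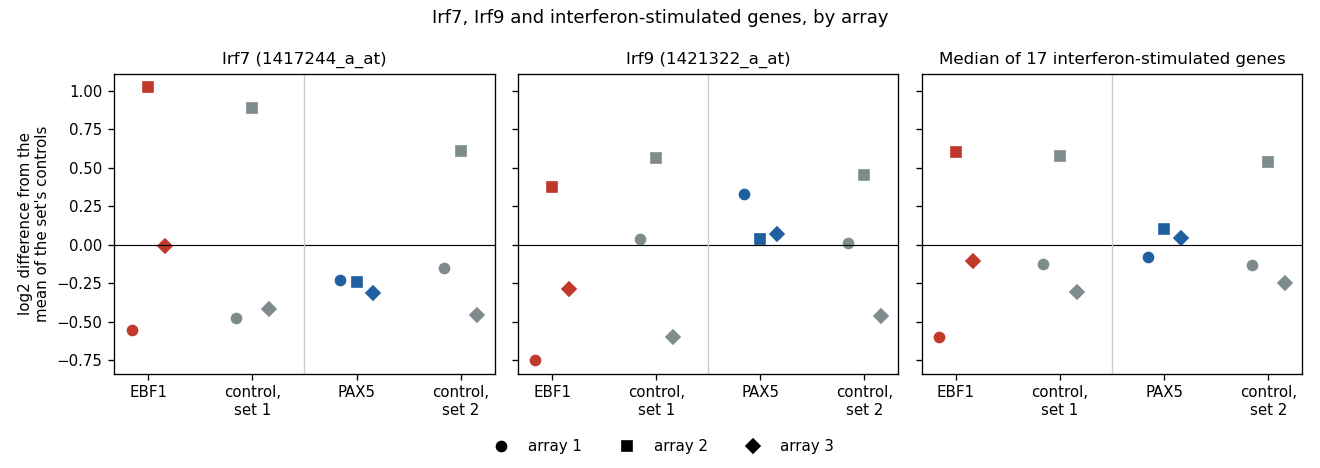
Log2 difference from the mean of the set's own controls (vertical axis) on each array for Irf7, Irf9 and the median of 17 ISGF3-type genes, by group. Array 2 is the highest of the 3 for all of them in EBF1 and control cells, while the PAX5 arrays lie close together, between -0.32 and 0.33.

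For Irf7 and 1 Irf8 probe set the control readings differed between the sets even though the control arrays look like the same hybridisations. Irf7 read 4.06, 2.45 and 3.1 times as high in second-set as in first-set controls 1, 2 and 3, a mean log2 offset of 1.52, beside a median of 0.12 over all probe sets. Irf8 1448452_at read 0.456, 0.396 and 0.518 times as high, an offset of -1.1. An offset of over 1 in size was found for 6.01% of the table. Irf4 1421174_at had ratios of 0.694 to 0.974, and the other 11 IRF probe sets 0.998 to 1.24. Levels of EBF1 and PAX5 cells can therefore be set side by side only relative to their own controls, which is how the changes above were computed.

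**Figure D4:**
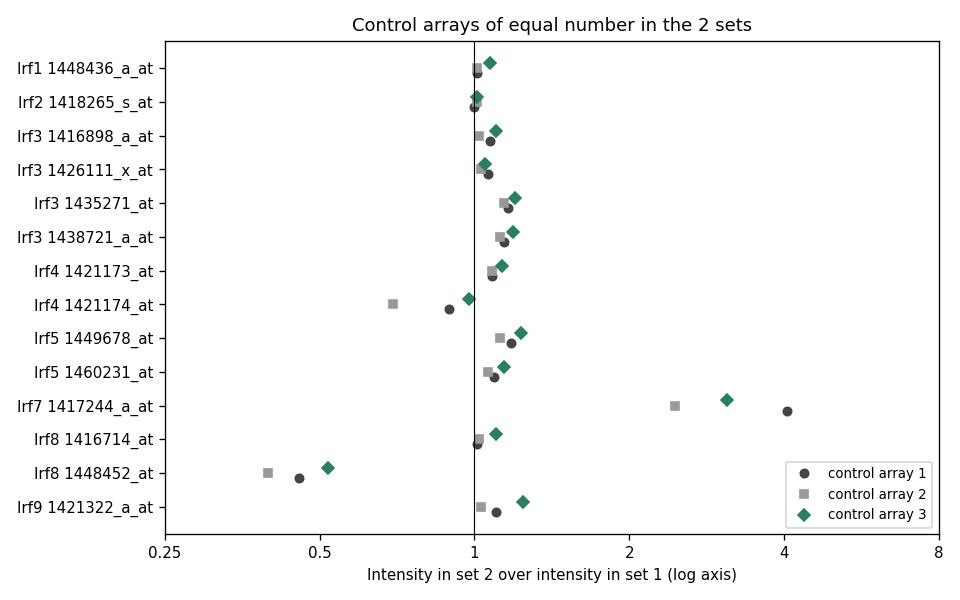
Ratio of second-set to first-set control intensity for each IRF probe set (log axis), one point for each of the 3 control numbers. Irf7 lies at 2.45 to 4.06 and Irf8 1448452_at at 0.396 to 0.518, while most others lie near 1.

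Other parts of the IRF pathway were read from lists of genes, each gene by its brightest probe set and with the p-values of the whole-table fit, whose shares of calls are given above. Upstream, 0 of 10 measured interferon receptor and JAK-STAT genes passed with either factor (median log2 change -0.23 with EBF1 and 0.14 with PAX5, beside 0.02 and -0.01 over all genes; 5 and 3 of the 10 at an unadjusted p under 0.05), and 0 of 13 sensors, adaptors and kinases passed (medians -0.07 and 0.17; 1 of the 13 at an unadjusted p under 0.05 with each). Among proteins that bind IRFs or repress with them, 0 of 7 passed (medians -0.08 and 0.23; 1 of the 7 at an unadjusted p under 0.05 with each).

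Among DNA-binding partners of Irf4 and Irf8, 1 of 9 measured genes rose with each factor, and it was Spib, the ETS factor that recruits them to composite elements. Spib read 726.3, 898.2 and 258.5 in EBF1 cells, against 61.93, 33.86 and 37.2 in controls, and 1681, 1130 and 1268 in PAX5 cells, against 103, 76.05 and 60.44 in controls. All transduced arrays were far above all controls, with a log2 change of 3.27 with EBF1 (limma adjusted p = 0.0331) and 3.93 with PAX5 (adjusted p = 0.00818). Spi1, which encodes PU.1, the other ETS partner, had changes of -0.35 and 0.00 and passed neither test. The list's median change was 0.16 with EBF1 and 0.11 with PAX5.

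Of 13 measured genes described as regulated by Irf4 or Irf8 in B-lineage cells, 2 rose with EBF1, 2 rose with PAX5, and 0 fell with either factor (medians 0.13 and 0.20). With EBF1 these were the surrogate light chain genes Vpreb1, with a log2 change of 6.48 (limma adjusted p = 0.000103), and Igll1, with 5.08 (adjusted p = 0.000119). With PAX5 the genes past the threshold were Blnk, the pre-B-cell receptor adaptor, and Ciita, the master regulator of MHC class II genes. Blnk read 4877, 3639 and 3351 in PAX5 cells, against 115.8, 29.84 and 46.95 in controls (log2 change 5.84, adjusted p = 0.00671), and Ciita read 309.2, 272.2 and 270.7, against 46.19, 35.76 and 44.21 (log2 change 2.40, adjusted p = 0.000214). In EBF1 cells Blnk read 1195, 942.6 and 233.2, against 103.8, 26.81 and 39.48 in controls, with no overlap (log2 change 3.33, adjusted p = 0.117), and its difference between the factors did not pass (-2.51, adjusted p = 0.128).

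In the same list 5 of 13 genes differed between the factors. EBF1 change minus PAX5 change was positive for Vpreb1 (6.28), Igll1 (5.25) and the recombinase gene Rag1 (3.63, limma adjusted p = 0.0423), and negative for Ciita (-2.27, adjusted p = 0.000194) and the kinase gene Syk (-1.18, adjusted p = 0.0119). The list's median difference was -0.22, beside 0.02 over all genes.

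Of the 17 ISGF3-type genes 0 passed with either factor (medians 0.07 with EBF1 and -0.04 with PAX5; 0 and 1 at an unadjusted p under 0.05). Of 18 genes of the interferon gamma and Irf1 kind, which include guanylate-binding proteins and immunoproteasome subunits, 0 passed with EBF1 (4 at an unadjusted p under 0.05) and 1 with PAX5 (6 at an unadjusted p under 0.05), which was Ciita again (medians -0.01 and 0.05).

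The genes most like Irf4 and Irf8 in their course over the 8 samples were sought among 1582 genes with a bright and variable probe set, by Pearson's correlation of log2 values. For Irf4 they were Bcl7a (0.985), Pcmtd1 (0.979), Cyp4f16 (0.975), Prkcd (0.973) and Ablim1 (0.959), with log2 changes of 1.04 to 1.53 with PAX5 and 0.24 to 0.61 with EBF1. For Irf8 the first was Irf5 (0.995), then Hhex (0.99), Ffar2 (0.987), Bmf (0.987) and Stk17b (0.981). These correlations describe 8 samples that share 3 groups, and much of each is the contrast between PAX5 and the rest.

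Cells that also express Irf8 or Irf4 were looked for by their markers, since the sort was on GFP alone. The 8 measured dendritic markers (of 9 listed) summed to 8329 to 9173 in PAX5 cells, against 9679 to 12521 in their controls, and to 4920 to 9505 in EBF1 cells, against 9610 to 12633. Of them 1 rose in PAX5 cells, Itgax, which encodes the integrin CD11c and read 258.8, 210.7 and 202, against 88.94, 79.14 and 42.83 (log2 change 1.56, limma adjusted p = 0.0226). The 8 myeloid markers summed to 1004 to 1653 in PAX5 cells, against 1444 to 2679, and to 401 to 768 in EBF1 cells, against 897 to 2193. Both sums were lower on every EBF1 array than on every first-set control, but a few bright genes make up much of them. These were Ccr9, Flt3, Bst2 and Tcf4 in the dendritic sum and Mpo in the myeloid one. In the second set Csf1r also weighed in the myeloid sum. It read 451.9, 515.9 and 505.7 in PAX5 cells, beside 797.8, 215.0 and 191.8 for Mpo. The median change over the 8 myeloid markers was -0.07 with PAX5 and 0.03 with EBF1. Itgam, which encodes the integrin CD11b, read 276.3, 198.9 and 199.9 in PAX5 cells, above all its controls at 164.4, 170.3 and 97.91 (log2 change 0.68, limma adjusted p = 0.637). In EBF1 cells Itgam read 18.37, 47.69 and 50.31, below all its controls at 150.9, 164.3 and 84.69, and the difference between the factors passed (-2.14, adjusted p = 0.0258). The part of such cells in the Irf8 and Irf4 readings was not tested.

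Markers of the OP9 stroma were highest on 1 EBF1 array. The 12 stroma markers summed to 13329 on EBF1 array 3, against 2003 to 3301 on the other EBF1 arrays and 1850 to 2835 in their controls, and to 1027 to 2291 in PAX5 cells, against 2056 to 3242. Thy1 and Pdgfrb make up much of the control sums. Thy1 read 627.1, 1284 and 1119 in first-set controls, while Bgn read 549.9, 7.98 and 73.14. In PAX5 cells both Thy1 and Pdgfrb lay below all their controls. The median change over the 12 markers was 1.45 with EBF1 and 0.17 with PAX5. Stroma markers also differed among the PAX5 arrays. Their median against the mean of second-set controls was -0.26 on array 1 and 0.20 and 0.35 on the nearly identical arrays 2 and 3. PAX5 array 1, the highest for Irf4 and Irf8, was the highest for 0 of the 12 markers, beside 38.4% of all genes. EBF1 array 3 had the lowest EBF1 readings of Irf4 1421173_at, of both Irf8 probe sets and of Spib. The part of stroma in the readings of either group was not tested. Without EBF1 array 3 the EBF1 log2 change was 1.09 for Irf4 1421173_at (limma adjusted p = 0.205) and -0.45 for Irf8 1416714_at (adjusted p = 0.657). Among the other marker lists 2 more genes passed with EBF1, the lymphoid surface gene Ly6d (log2 change 4.17, limma adjusted p = 0.0258) and the granzyme gene Gzma (6.43, adjusted p = 0.000171). Ly6d was the 1 called of 9 early progenitor markers, of which 3 had a positive change (median -0.35). Gzma was the 1 called of 4 measured natural killer markers and the only 1 with a positive change (median -0.07). The 4 measured T-lineage markers summed to 149 to 168 in EBF1 cells, 156 to 179 in PAX5 cells and 128 to 205 in controls.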

How the data were processed

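Each of the 12 arrays has 1 column of deposited probe set intensities, which are linear, and per the labels the cRNA was biotin-labelled by the Affymetrix protocol. The authors' summarisation and normalization are not given in the sources used here. Of 45037 probe sets, 34945 carry 1 symbol in the platform annotation, 932 several and 9160 none. The members and lists were chosen with earlier results of these data known. All member probe sets are named, as are list genes past the threshold and the 5 genes most correlated with Irf4 and with Irf8. Genes in examples, Spi1, Usp18, Mpo, Csf1r, Ccr9, Flt3, Bst2 and Tcf4 were named after their values were seen.

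Values were used as log2(intensity + 16) with no filter, so all 14 member probe sets were tested. The offset of second-set from first-set controls was taken off each probe set, same-numbered controls were averaged, PAX5 arrays 2 and 3 were averaged, and the 8 samples entered 1 fit of limma 3.58.1 in R 4.3.3 (lmFit, eBayes), two-sided, with Benjamini-Hochberg adjustment over all probe sets and a threshold of 0.05. The scripts were tested on simulated data. Lists, motifs and figures used Python 3.11.15, pandas 2.3.3 and matplotlib 3.10.9.

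Deviations of equal numbers correlated at 0.345, 0.608 and 0.392 between control and EBF1 arrays and at 0.411, 0.194 and 0.333 between control and PAX5 arrays. All exceeded 0.1, so the number was used as a block in alternative fits. Deviations are taken from the group mean and PAX5 arrays 2 and 3 are nearly identical, so the 3 PAX5 values are not separate evidence of pairing. The main fit has no block and ignores this pairing. The EBF1 block fit used the first-set arrays alone, so it differs from the main fit in its samples too. For the EBF1 change of Irf8 1448452_at the SE was 0.321 in the main fit. It was 0.276 without a block on only the samples of the comparison, and 0.115 with the block. For the EBF1 change of Irf1 these SEs were 0.244, 0.255 and 0.251. PAX5 arrays 2 and 3 count as 1 sample, so the block for PAX5 needs all 3 arrays counted separately. The 23 alternatives, of which the block for the difference was added after the data were seen, covered the constant, a filter, scaling, probe sets per gene, the counting of arrays, the block, variance options and leaving out each sample.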

Additional observations from a re-analysis of the deposited data

Results flagged for a closer look

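In the main fit, Irf4 and Irf8 responded differently to the 2 factors. This was a test of the difference itself, at both probe sets of each gene. EBF1 change minus PAX5 change was -1.85 for Irf4 1421173_at (limma adjusted p = 0.0469), -1.52 for Irf4 1421174_at (0.0355), -2.59 for Irf8 1416714_at (0.0158) and -2.26 for Irf8 1448452_at (0.0276). The change was lower with EBF1 in each. With all 12 arrays counted separately, the spread of the controls also enters the test of the difference. In that fit the limma adjusted p was 0.0654 to 0.172, and none passed. Without PAX5 array 1 the differences were -1.58, -1.07, -2.29 and -1.77. That fit has 1 PAX5 sample, takes the spread from the other groups, and called none of the 4. Groups of 3 arrays were not tested for outlying samples.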

How the results depend on the processing

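The count of IRF probe sets called with EBF1 was 0 under every alternative run, including the replicate block and each sample left out, where the whole table gave 7 to 597 calls (597 without EBF1 array 3). With PAX5 the count of 2 became 1 with an added constant of 64, with a mean intensity of at least 64 (11 tested) and with the brightest probe set per gene (8 tested). It became 4, both probe sets of Irf4 and of Irf8, when all 12 arrays were counted separately, when PAX5 arrays 2 and 3 were separate samples, with the replicate block on 3 PAX5 arrays, and with trend and robust variance. Leaving out 1 sample gave 0 to 2, with 0 where PAX5 had 1 sample left. For EBF1 change minus PAX5 change the count of 4 became 1 with a constant of 4, 2 with 64, 2 with the mean of a gene's probe sets (8 tested), 0 with all 12 arrays counted separately and 1 with only the samples of the comparison, and leaving out 1 sample gave 0 to 4. It became 5, with Irf5 1460231_at added, under quantile normalization within each set and with PAX5 arrays 2 and 3 as separate samples. With the brightest probe set per gene (8 tested), those of Irf4, Irf5 and Irf8 were called. Fewer probe sets tested account for part of the lower counts by construction, and otherwise the cause was not tested.

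No called change turned its direction. The PAX5 change of Irf4 1421173_at ran from 2.25 to 2.95 and passed in 19 of 21 alternatives, that of Irf4 1421174_at in 13 of 18, and those of Irf8 1416714_at and 1448452_at in 6 of 21 and 4 of 19. The difference passed in 12 of 21 for Irf4 1421173_at, 8 of 18 for Irf4 1421174_at, 19 of 21 for Irf8 1416714_at, 12 of 19 for Irf8 1448452_at and 5 of 21 for Irf5 1460231_at. With PAX5 arrays 2 and 3 as separate samples, 5 IRF probe sets were called for the difference (the 4 and Irf5 1460231_at) and 1351 in the table. With the replicate block as well, added for the difference after the data were seen, the same 5 were called and 1796 in the table. Both Irf8 probe sets with PAX5 were likewise called with separate arrays, with the block and without it. Relative to the fits with separate arrays, the block changed no call among the IRF probe sets. With 2 PAX5 samples and dim probe sets of Irf3 and Irf5 near the array median, small changes were beyond these data.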

Other observations

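Irf7 had as its closest genes over the 8 samples, among the 1582 considered, Usp18 (Pearson's correlation of log2 values 0.968), Ifi27 (0.958), Ifih1 (0.94), Ddx58 (0.94) and Rtp4 (0.929). Ifih1 and Ddx58 encode the RNA sensors MDA5 and RIG-I. The genes closest to Irf9 were Slfn8 (0.989), Selenow (0.964), Atp8b4 (0.955), Trim12c (0.94) and Xaf1 (0.936). None of these 10 genes passed limma's test with PAX5, with adjusted p values of 0.825 to 0.994. They were named after their values were seen, and the 8 samples share a culture system and controls.

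Bcl6, a repressor that acts in germinal centre B cells, is described as a target of Irf4 and Irf8. It read 420.4, 226.4 and 232.3 in PAX5 cells, against 157.5, 99.99 and 98.71 in controls, so every PAX5 array lay above every control. Its log2 change of 1.31 had a limma adjusted p of 0.0929. In EBF1 cells it read 101.3, 104.5 and 97.22, against 139.1, 93.11 and 89.42 in controls, with overlap (log2 change -0.05, adjusted p = 0.972). Bcl6 was singled out after its values were seen.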
